A study of Mus musculus with 12 samples.

Results

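The genes described here are 8 members of the RGS family (*Rgs1*, *Rgs2*, *Rgs3*, *Rgs10*, *Rgs14*, *Rgs16*, *Rgs18* and *Rgs19*) and 2 G protein-coupled receptor (GPCR) genes of leukocytes (*Gpr183* and *Gpr65*). They were chosen by name as regulators of G protein signalling and leukocyte receptors, with earlier results of these data known. They are 10 of the 24346 gene symbols with a value in every library. Levels are in FPKM, fragment counts scaled for transcript length and library size. Tests were run on the 11395 genes that averaged 0.5 FPKM or more over the 12 libraries, and all 10 members were among them.

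GPCRs pass signals from outside the cell by loading GTP onto the α subunit of a heterotrimeric G protein. RGS proteins speed the hydrolysis of that GTP by Gα subunits and so shorten the signal, and in leukocytes they are best known for limiting responses to chemokines. *Gpr183* encodes a receptor for oxysterols that guides leukocyte movement, and *Gpr65* encodes a receptor that senses extracellular protons and signals through cAMP.

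RNA was sequenced from group 2 innate lymphoid cells (ILC2s), lymphocytes without antigen receptors that secrete type 2 cytokines, sorted from the lungs of C57BL/6 mice. The study's methods give the background as C57BL/6J. The 12 libraries formed 4 groups of 3: WT mice given PBS, WT mice given IL-33, mice labelled 6DKO given PBS and 6DKO mice given IL-33. For 3 days the mice received PBS or IL-33 through the nose; IL-33 is released by damaged epithelium and is a main activator of ILC2s. The labels give an IL-33 dose of 50 ng, which differs from the dose in the study's methods. The 6DKO mice were *Sema6d*-/- animals, a global knockout of the semaphorin gene, so that the mutation was not limited to ILC2s. The mice were young adults, and ILC2s were gated as CD45+ Lin- Thy1.2+ ST2+ cells. The sources used here do not state that the libraries of a group came from separate mice, so p-values measure only the spread between these samples, which may be technical.

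*Sema6d* (chromosome 2, 124089969 to 124667770, GRCm38) was at 27.5, 46.1 and 37.5 FPKM in the WT libraries under PBS, against 29.0, 22.9 and 19.8 FPKM in those labelled 6DKO. With IL-33 the WT libraries had 19.7, 35.5 and 28.7 FPKM of *Sema6d* and the 6DKO libraries 15.4, 13.6 and 13.8 FPKM. The gene was thus measured in all 6 libraries labelled 6DKO. The genotypes overlapped under PBS and did not overlap under IL-33. A value summed over a whole gene does not show which exons remain.

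The libraries differed in depth and detection along with treatment, though the ranges of depth overlapped. Relative depth, estimated from weakly expressed genes with WT IL-33 replicate 3 set to 1, was 0.739 to 0.999 in PBS libraries and 0.968 to 1.39 in IL-33 libraries. Of the 3617 genes with a mean of 5 to 20 FPKM, the number listed at 0 was 169 to 641 per PBS library against 25 to 50 per IL-33 library. Pearson's r between replicates over the genes tested, which are not independent, was 0.761 to 0.818 under PBS and 0.934 to 0.950 under IL-33. The part of these differences in the changes described here was not tested.

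The ILC2 label was checked against 12 marker genes, all of which had a value above 0 in every library. Their summed level was 5623 to 9034 FPKM, and the most abundant was *Id2*. *Gata3* and *Il1rl1*, which encode the defining transcription factor of ILC2s and the IL-33 receptor ST2, had group means of 343 to 513 FPKM and 150 to 211 FPKM.

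Among the RGS genes, *Rgs1* and *Rgs2* stood far above the rest in FPKM, a scale that corrects for transcript length. *Rgs1* averaged 2018 ± 220 FPKM (SD, n = 3) in WT PBS ILC2s, where its mean ranked 70 among all genes, and 3017 ± 156 FPKM (SD, n = 3) in WT IL-33 ILC2s, where it ranked 30. In the 6DKO groups its mean ranked 77 under PBS and 23 under IL-33. *Rgs2* ranked 89 to 117 in the 4 groups. Together the 2 genes made up 89.3 ± 2.16% (SD, n = 3) of the summed FPKM of the 8 RGS genes in WT PBS libraries and 91.3 ± 0.375% (SD, n = 3) in 6DKO IL-33 libraries.

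The order of the levels over all 12 libraries was *Rgs1* (2526 FPKM), *Rgs2* (1301), *Gpr65* (279), *Rgs19* (127), *Gpr183* (112), *Rgs10* (106), *Rgs16* (72.7), *Rgs18* (61.0), *Rgs14* (36.1) and *Rgs3* (8.73). This order differed between groups. In WT IL-33 libraries *Rgs10* (mean 167 FPKM) and *Rgs16* (109.6) were above *Rgs19* (98.0) and *Gpr183* (88.9), whereas in WT PBS libraries they averaged 67.7 and 48.02 FPKM against 151 and 124 FPKM. *Rgs1* and *Rgs2* overlapped, since the lowest *Rgs1* library (1315 FPKM) was below the highest *Rgs2* library (1833 FPKM). From *Rgs19* down to *Rgs3*, the range of each member over the 12 libraries overlapped that of the next in the order. *Rgs2* and *Gpr65* did not overlap in any pair of libraries, and the lowest *Rgs2* value, 858 FPKM, was above the highest *Gpr65* value, 345 FPKM.

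**Figure D1:**
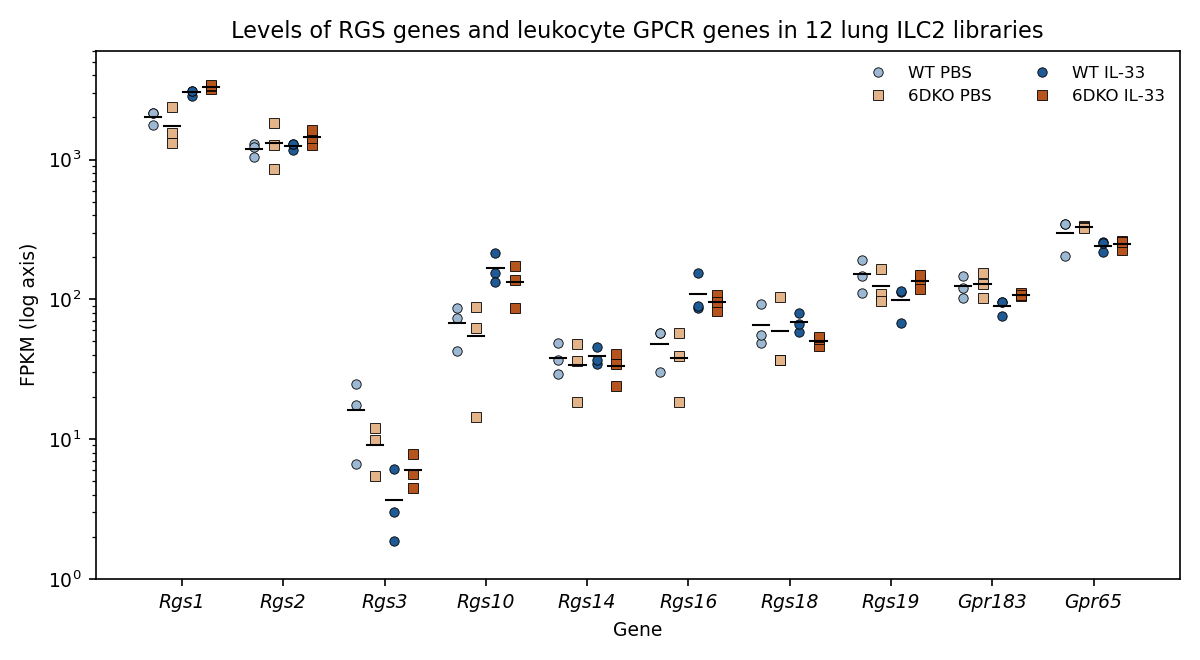
FPKM of the 10 genes in each of the 12 libraries on a log axis, with a symbol for each library, coloured by group, and a black bar at the mean of the 3 libraries of a group. *Rgs1* in the 6 IL-33 libraries (2837 to 3424 FPKM) and *Rgs16* in the 6 IL-33 libraries (82.9 to 153 FPKM) lie above all 6 PBS libraries.

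*Rgs1* encodes a GTPase activator for Gαi and Gαq subunits that dampens lymphocyte chemotaxis. In WT ILC2s it was at 2153, 2137 and 1763 FPKM under PBS and at 2837, 3114 and 3101 FPKM under IL-33. In 6DKO ILC2s it was at 2365, 1315 and 1551 FPKM under PBS and at 3186, 3360 and 3424 FPKM under IL-33. The 3 IL-33 libraries lay above the 3 PBS libraries in each genotype, and the PBS libraries of 6DKO mice were more spread than those of WT mice. In bulk RNA, fewer cells of a type and less RNA per cell cannot be told apart.

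*Rgs1* was the single member called between IL-33 and PBS in 6DKO ILC2s (limma, log2 fold change 0.97 ± 0.17 (standard error), adjusted p = 0.0115). Its 95% confidence interval was 0.60 to 1.35. In that comparison 1 of 10 members and 324 of 11395 genes (2.84%) were called, and of all genes tested 1.75% were called and higher under IL-33, so a count of 1 is not a result about the members as a group. The *Rgs1* call was lost without 6DKO IL-33 replicate 2 (adjusted p = 0.0544, limma) or replicate 3 (adjusted p = 0.0571, limma), with limma's prior without a trend (adjusted p = 0.111) and in a fit of the 2 groups alone (adjusted p = 0.0933). It was also lost with a required log2 fold change of 1, a cutoff on the estimate and not a further test. Over all 22 alternatives the log2 fold change of *Rgs1* was between 0.79 and 1.22, and its lowest adjusted p was 0.000649 (limma).

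In WT ILC2s, the log2 fold change of *Rgs1* was 0.58 (standard error 0.17, adjusted p = 0.0886, limma), with a 95% confidence interval of 0.21 to 0.96. No member was called in that comparison by limma, in which 486 genes (4.27%) were, and 6 of 10 members had an unadjusted p under 0.05, as had 2011 genes (17.6%). In 6DKO ILC2s 3 of 10 members and 1731 genes (15.2%) had such a p. *Rgs1* was called in WT after quantile normalization (adjusted p = 0.00793, limma) and with array weights (adjusted p = 0.0255, limma). It was also called without 6DKO PBS replicate 1 (adjusted p = 0.00922, limma) or replicate 2 (adjusted p = 0.0419, limma), libraries that enter the WT comparison through the shared estimate of the spread. Over its 22 alternatives the lowest adjusted p in WT was 0.00793 (limma), and *Rgs1* was called in these 4 alone. The test of the difference between the genotypes gave 0.39 for *Rgs1* (standard error 0.25, adjusted p = 0.897, limma), which was 0.63 without 6DKO PBS replicate 1 and 0.21 without 6DKO PBS replicate 2.

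A contrast of IL-33 against PBS averaged over both genotypes was added after the values had been seen. With 6 libraries a treatment, *Rgs1* was higher under IL-33 by 0.78 on the log2 scale (standard error 0.12, adjusted p = 0.00196, limma), and all 6 IL-33 libraries lay above all 6 PBS libraries. A two-sided exact permutation test with treatment permuted within each genotype gave p = 0.005, the smallest that its 400 assignments allow. The p-values of this test, here and below, are not adjusted over the 10 members, and no share over all genes was computed. This contrast called 3 of 10 members, *Rgs1*, *Rgs16* and *Rgs10*, beside 1005 of 11395 genes (8.82%). All 3 were higher under IL-33, the direction of 5.75% of the genes tested. The count of 3 was 2 with a required log2 fold change of 1, with no filter, without the trend and with array weights. The *Rgs1* call was lost with that required change, a cutoff on the estimate and not a further test. It was lost with none of the other 20 alternatives, and the lowest adjusted p over all 21 was 6.63e-05 (limma).

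*Rgs2*, which lies in the same gene cluster as *Rgs1* and encodes a GTPase activator that prefers Gαq, gave other values. It was at 1284, 1037 and 1233 FPKM under PBS and 1179, 1286 and 1296 FPKM under IL-33 in WT ILC2s. In 6DKO ILC2s *Rgs2* was at 1833, 858 and 1271 FPKM under PBS and 1267, 1435 and 1634 FPKM under IL-33. The treatments overlapped in each genotype. *Rgs2* differed by 0.09 on the log2 scale in WT (95% confidence interval −0.39 to 0.56, adjusted p = 0.893, limma) and 0.19 in 6DKO ILC2s (−0.28 to 0.67, adjusted p = 0.739, limma).

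The ratio of *Rgs1* to *Rgs2* FPKM was 1.72 ± 0.317 (SD, n = 3) in WT PBS and 2.41 ± 0.0142 (SD, n = 3) in WT IL-33 libraries. In 6DKO libraries it was 1.35 ± 0.164 (SD, n = 3) under PBS and 2.32 ± 0.211 (SD, n = 3) under IL-33. The lowest ratio under IL-33, 2.09, was above the highest under PBS, 2.06. The *Rgs1* share of the summed RGS FPKM was 56.1 ± 2.54% (SD, n = 3) in WT PBS, 51.5 ± 1.36% (SD, n = 3) in 6DKO PBS, 63.4 ± 0.811% (SD, n = 3) in WT IL-33 and 63.7 ± 1.93% (SD, n = 3) in 6DKO IL-33 libraries.

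*Rgs16* encodes another small RGS protein that acts on Gαi and Gαq and is induced in activated lymphocytes. It was at 57.0, 57.1 and 30.0 FPKM under PBS and at 86.4, 89.2 and 153 FPKM under IL-33 in WT ILC2s. The 6DKO libraries had 57.1, 39.2 and 18.5 FPKM of *Rgs16* under PBS and 107, 82.9 and 95.4 FPKM under IL-33. All 6 IL-33 libraries lay above all 6 PBS libraries, and WT IL-33 replicate 3 was the highest. *Rgs1* and *Rgs16* were the 2 of 10 members without overlap and higher under IL-33 over both genotypes, beside 4.12% of the genes tested.

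The log2 fold change of *Rgs16* was 1.18 in WT (standard error 0.40, adjusted p = 0.138, limma) and 1.42 in 6DKO ILC2s (standard error 0.40, adjusted p = 0.0952, limma). In the added contrast over both genotypes it was 1.30 (standard error 0.28, adjusted p = 0.0142, limma), and the exact permutation test gave p = 0.005. Mean FPKM was 43.1 ± 16.6 (SD, n = 6) under PBS and 102 ± 26.3 (SD, n = 6) under IL-33, a ratio of 2.37. It was called in 6DKO ILC2s without 6DKO PBS replicate 1 (adjusted p = 0.0426, limma; 0.0426 to 0.283 over 22 alternatives). Exons of *Rgs16* share 236 bases with *Gm28513* on the opposite strand, which has no value here. The sources differ on whether the library kit marked strand, and without strand the reads of the 2 genes cannot be told apart there.

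*Rgs10* encodes a short RGS protein that is little more than the RGS domain. It was at 42.6, 87.0 and 73.4 FPKM under PBS and 215, 154 and 133 FPKM under IL-33 in WT ILC2s. In 6DKO ILC2s *Rgs10* was at 14.4, 62.5 and 88.3 FPKM under PBS and 86.5, 137 and 173 FPKM under IL-33. The treatments did not overlap in WT and overlapped in 6DKO ILC2s, where the highest PBS library was just above the lowest IL-33 library and 6DKO PBS replicate 1 was far below the others.

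*Rgs10* had a log2 fold change of 1.32 in WT (95% confidence interval 0.12 to 2.53, adjusted p = 0.231, limma) and 1.53 in 6DKO ILC2s (0.33 to 2.73, adjusted p = 0.200, limma). Over both genotypes it was 1.43 (standard error 0.39, adjusted p = 0.0420, limma), with p = 0.01 in the exact permutation test. This call was lost under 11 of 21 alternatives, with adjusted p between 0.0174 and 0.105 over all of them (limma). It was lost with no filter, without the trend, with array weights, and without WT PBS replicate 1, WT PBS replicate 3 or any single IL-33 library (adjusted p 0.0523 to 0.105 for these libraries, limma). In WT it was called when 6DKO PBS replicate 1 was left out (adjusted p = 0.0409, limma; 0.0409 to 0.522 over 22 alternatives). The log2 fold change in 6DKO ILC2s was 0.77 without that library and between 0.77 and 2.04 over all alternatives.

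*Rgs3*, whose product acts on Gαi and Gαq and occurs in long and short forms, was the least abundant member. It was at 24.6, 17.6 and 6.58 FPKM under PBS and 6.08, 2.98 and 1.86 FPKM under IL-33 in WT ILC2s. The 6DKO libraries were at 9.79, 11.9 and 5.46 FPKM under PBS and 4.47, 7.82 and 5.62 FPKM under IL-33. The treatments did not overlap in WT, by a margin between WT PBS replicate 3 and WT IL-33 replicate 1 that was smaller than the spread within either group, and they overlapped in 6DKO ILC2s.

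*Rgs3* had a log2 fold change of −1.83 in WT (standard error 0.56, adjusted p = 0.101, limma) and −0.50 in 6DKO ILC2s (standard error 0.56, adjusted p = 0.734, limma). The latter was −0.29 without 6DKO PBS replicate 2 and −0.79 without 6DKO PBS replicate 3. Without WT PBS replicate 3 the value in WT was −2.34 (adjusted p = 0.0328, limma; 0.0328 to 0.329 over 22 alternatives). The difference between the genotypes was 1.33 (95% confidence interval −0.40 to 3.06, adjusted p = 0.897, limma). Over both genotypes the log2 fold change was −1.16 (adjusted p = 0.0957, limma; exact permutation test, p = 0.02), and it was called without WT PBS replicate 3 (adjusted p = 0.0326, limma; 0.0326 to 0.221 over 21 alternatives). The exact permutation p was 0.05 without WT IL-33 replicate 2 or 3.

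*Rgs14* and *Rgs18* did not separate by treatment. *Rgs14*, which encodes a scaffold that binds Gαi and Ras-family GTPases, ranged from 18.3 to 48.4 FPKM under PBS and from 24.1 to 45.7 FPKM under IL-33. Its log2 fold change was 0.05 in WT (95% confidence interval −0.74 to 0.85) and 0.03 in 6DKO ILC2s (−0.77 to 0.82). *Rgs18*, known from platelets and megakaryocytes, ranged from 36.7 to 104 FPKM under PBS and from 46.4 to 80.3 FPKM under IL-33, with log2 fold changes of 0.10 in WT (−0.74 to 0.93) and −0.04 in 6DKO ILC2s (−0.88 to 0.79). These intervals leave room for changes in either direction that are larger than the *Rgs1* change in WT.

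The summed level of 7 platelet marker genes was 0 to 4.67 FPKM in the 12 libraries, with 4 to 7 of them listed at 0 in each. The highest mean over the 12 libraries was that of *Gp9*, and *Pf4*, *Ppbp* and *Treml1* were at 0 in all 12 libraries. *Rgs18* was at 36.7 FPKM or more in every library, also in the 6 libraries in which all 7 platelet markers were listed at 0. These 6 include PBS libraries, which listed many other genes at 0. The part of platelets in the *Rgs18* level was not tested.

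*Rgs19*, also called GAIP, encodes a GTPase activator for Gαi subunits with a string of cysteines that can be palmitoylated. It was at 148, 192 and 111 FPKM under PBS and 113, 114 and 67.1 FPKM under IL-33 in WT ILC2s. The 6DKO libraries had 110, 165 and 97.9 FPKM under PBS and 138, 118 and 150 FPKM under IL-33. The treatments overlapped in each genotype. The log2 fold change was −0.62 in WT (standard error 0.28, adjusted p = 0.280, limma) and 0.15 in 6DKO ILC2s (standard error 0.28, adjusted p = 0.851, limma). With 1 library left out in turn, it ran from −0.82 (without WT PBS replicate 3) to −0.37 (without WT IL-33 replicate 3) in WT. In 6DKO ILC2s it ran from 0.00096 (without 6DKO PBS replicate 3) to 0.38 (without 6DKO PBS replicate 2). The difference between these changes, 0.77 (standard error 0.40, unadjusted p = 0.0771, adjusted p = 0.897, limma), had the lowest p of the 10 members in the interaction test.

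*Gpr183* was at 102, 147 and 121 FPKM under PBS and 95.5, 95.01 and 76.3 FPKM under IL-33 in WT ILC2s. In 6DKO ILC2s *Gpr183* was at 153, 128 and 102 FPKM under PBS and 106, 110 and 108 FPKM under IL-33. The treatments did not overlap in WT, where IL-33 libraries were lower, and overlapped in 6DKO ILC2s. *Gpr183* differed by −0.46 on the log2 scale in WT (standard error 0.21, adjusted p = 0.268, limma) and −0.22 in 6DKO ILC2s (standard error 0.21, adjusted p = 0.671, limma). The latter was −0.079 without 6DKO PBS replicate 1 and −0.37 without 6DKO PBS replicate 3. Over both genotypes it was −0.34 (adjusted p = 0.186, limma; exact permutation test, p = 0.03). The permutation p was 0.05 to 0.055 without WT PBS replicate 2, 6DKO PBS replicate 1 or 6DKO IL-33 replicate 1.

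*Gpr65* was at 345, 345 and 203 FPKM under PBS and 218, 255 and 253 FPKM under IL-33 in WT ILC2s. The 6DKO libraries were at 336, 329 and 322 FPKM under PBS and 263, 226 and 258 FPKM under IL-33. The treatments did not overlap in 6DKO ILC2s, where IL-33 libraries were lower, and they overlapped in WT because WT PBS replicate 3 was below all IL-33 libraries. *Gpr65* differed by −0.26 on the log2 scale in WT (standard error 0.20, adjusted p = 0.551, limma) and −0.40 in 6DKO ILC2s (standard error 0.20, adjusted p = 0.362, limma). The value in WT was −0.13 without WT PBS replicate 1 or 2 and −0.51 without WT PBS replicate 3.

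Over both genotypes the log2 fold change of *Gpr65* was −0.33 (adjusted p = 0.175, limma; exact permutation test, p = 0.04). It was called when WT PBS replicate 3 was left out (log2 fold change −0.46, adjusted p = 0.0122, limma). Under the other 20 of 21 alternatives it was not called. The exact permutation p was 0.05 to 0.135 without WT PBS replicate 1 or 2 or without any single IL-33 library. Exons of *Gpr65* share 511 bases with *Gm47566* on the opposite strand, with the same limit as for *Rgs16*.

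**Figure D2:**
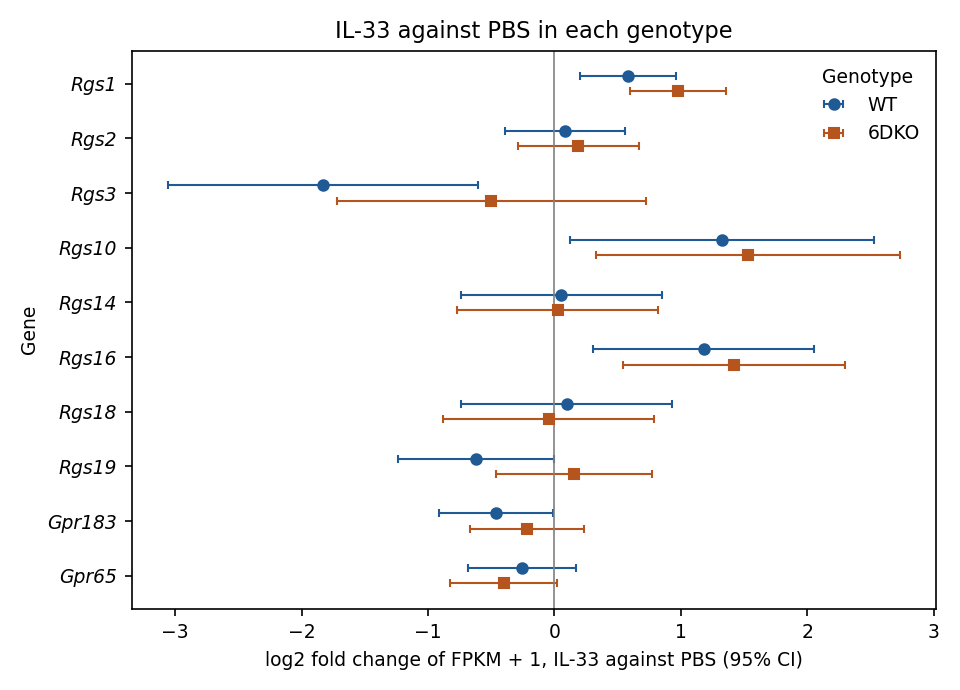
Log2 fold change of FPKM + 1 between IL-33 and PBS for each gene, in WT (circles) and 6DKO ILC2s (squares), with bars for the 95% confidence interval of limma's fit to 12 libraries. *Rgs1* in 6DKO ILC2s (0.97, 0.60 to 1.35) had an adjusted p under 0.05, and the intervals of *Rgs2*, *Rgs14*, *Rgs18* and *Gpr65* include 0 in each genotype.

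Between IL-33 and PBS in WT, the groups did not overlap for 3 members that were higher under IL-33 (*Rgs1*, *Rgs10* and *Rgs16*), beside 15.9% of the genes tested, and for 2 that were lower (*Rgs3* and *Gpr183*), beside 9.23%. In 6DKO ILC2s this held for 2 higher members (*Rgs1* and *Rgs16*), beside 13.9%, and for 1 lower member (*Gpr65*), beside 8.75%. No member was without overlap and lower under IL-33 over both genotypes, as 2.33% of the genes tested were. The 2 comparisons share no libraries. The median log2 fold change of the 10 members was 0.07 in WT and 0.09 in 6DKO ILC2s, against 0.16 and 0.14 for all genes tested.

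Quantile normalization moved the values of all genes, whereas with median-ratio scaling their medians were 0.16 in WT and 0.14 in 6DKO ILC2s, as without it. After quantile normalization the median of all genes was −0.04 in WT and −0.02 in 6DKO ILC2s. The 486 genes called in WT, 303 higher and 183 lower under IL-33, became 248 higher and 231 lower, and the 199 higher and 125 lower in 6DKO became 136 higher and 134 lower. Over both genotypes, 655 higher and 350 lower genes became 521 higher and 506 lower, and the number of members called was 3 under each of these scalings. With median ratios, 303 higher and 183 lower genes were called in WT, 198 and 122 in 6DKO ILC2s, and 659 and 351 over both genotypes.

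The genotypes were compared to ask whether loss of *Sema6d* altered these genes. Under PBS, limma called 0 of 10 members beside 66 of 11395 genes (0.579%), and 0 members had an unadjusted p under 0.05, as 12.9% of the genes had. Log2 fold changes of the members ran from −0.67 for *Rgs3* to 0.19 for *Gpr65*, with adjusted p from 0.563 to 0.977 (limma). Without WT PBS replicate 1 the *Rgs3* value was −0.30, without WT PBS replicate 3 it was −1.18, and without 6DKO PBS replicate 3 it was −0.38; that of *Gpr65* was −0.066 without WT PBS replicate 3. The genotypes overlapped for all 10 members under PBS, whereas 8.63% of the genes tested did not overlap.

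Under IL-33, limma called 0 of 10 members beside 1 gene (0.00878%), and again 0 members had an unadjusted p under 0.05, as 1.83% of the genes had. Log2 fold changes ran from −0.42 for *Rgs18* to 0.66 for *Rgs3*, which was 1.02 without WT IL-33 replicate 1 and 0.36 without WT IL-33 replicate 3. The genotypes did not overlap for 4 of 10 members, beside 14.2% of the genes tested. *Rgs1*, *Rgs19* and *Gpr183* were higher and *Rgs18* was lower in all 3 6DKO libraries than in all 3 WT libraries. The log2 fold changes of these 4 genes were 0.14, 0.50, 0.29 and −0.42, and each had an adjusted p of 1 (limma). Without WT IL-33 replicate 3, the values were 0.25 for *Rgs19* and 0.18 for *Gpr183*. With 3 libraries against 3, an exact permutation test of a single gene cannot give a p below 0.1.

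The test of the difference between the genotypes in their change under IL-33 called 0 of 10 members beside 2 genes (0.0176%), and 0 members had an unadjusted p under 0.05 (limma), as 5.57% of the genes had. The widest 95% confidence interval among the members, that of *Rgs3*, ran from −0.40 to 3.06, so that it holds 0 as well as values far from it.

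Markers of other cell types were measured in the same libraries. The summed FPKM of 9 macrophage genes was 0.390, 1.20 and 17.1 in WT PBS, 0.610, 132 and 10.6 in 6DKO PBS, 2.26, 3.96 and 0.815 in WT IL-33 and 10.5, 33.7 and 62.4 in 6DKO IL-33 libraries. *Lyz2* was the most abundant, and 4 to 7 of the 9 were listed at 0 in each library. In 6DKO PBS libraries *Marco* reached 7.28, *Mrc1* 6.84, *C1qc* 6.05 and *Adgre1* 3.06 FPKM. In 6DKO IL-33 libraries *C1qb* reached 5.47, *Cd68* 4.87 and *C1qa* 1.59 FPKM. *Csf1r* was at most 0.0718 FPKM. In the summed level the 3 6DKO IL-33 libraries lay above the 3 WT IL-33 libraries, as they did for *Rgs1*, *Rgs19* and *Gpr183*. The part of macrophages in those 3 differences was not tested. The Lin- gate used markers that include F4/80 and CD11c, and how many macrophages remained after it was not tested. *Cd68* was called in 6DKO ILC2s between IL-33 and PBS (limma, adjusted p = 0.0279), with a log2 fold change of 2.08 ± 0.44 (standard error). In WT its value was 0.19 (adjusted p = 0.883, limma), and the difference between the genotypes had an adjusted p of 0.787 (limma).

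The summed FPKM of 6 B cell genes was 0, 0.139 and 5.05 in WT PBS, 0, 0.0753 and 8.90 in 6DKO PBS, 26.9, 14.5 and 11.97 in WT IL-33 and 3.49, 18.4 and 5.91 in 6DKO IL-33 libraries. *Cd79b* made up most of it in all 6 IL-33 libraries and was called in WT (limma, adjusted p = 0.0228), with a log2 fold change of 4.08 ± 0.88 (standard error). In 6DKO ILC2s it was 1.79 (adjusted p = 0.370, limma), and the difference had an adjusted p of 0.897 (limma). Of the 6 genes 3 to 6 were listed at 0 in each library, and *Ms4a1* and *Pax5* were at 0 in all 12. *Rgs1*, which B cells also express, moved in the same direction, and the part of B cells in its change was not tested. *Rgs1* was at 1315 FPKM or more in every library, including the 2 in which all 6 B cell genes were listed at 0. These 2, WT PBS replicate 1 and 6DKO PBS replicate 1, also listed 472 and 641 of the 3617 genes averaging 5 to 20 FPKM at 0.

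Of the remaining marker lists, 6 T cell genes summed to 190 to 483 FPKM, nearly all of it *Cd3g*, with *Cd3e* at most 9.81 FPKM. The 4 neutrophil genes summed to 5.45 to 12.6 FPKM, most of it *Cxcr2*, and the 5 eosinophil genes, led by *Ccr3* in the mean over the 12 libraries, to 0 to 2.07 FPKM. None of the tested genes on these 3 lists or of the platelet list was called between IL-33 and PBS in either genotype. Among the ILC2 markers, *Klrg1* rose in WT (log2 fold change 1.19, adjusted p = 0.0318, limma), *Il2ra* fell in WT (−2.16, adjusted p = 0.000665, limma) and in 6DKO ILC2s (−1.57, adjusted p = 0.00666, limma), and *Il5* fell in 6DKO ILC2s (−1.11, adjusted p = 0.0455, limma). *Klrg1* in 6DKO (0.67, adjusted p = 0.270, limma) and *Il5* in WT ILC2s (−0.52, adjusted p = 0.342, limma) were not called, and the differences between the genotypes had an adjusted p of 0.897 for each (limma).

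The members share positions that the choice by name did not use. *Rgs2* (chromosome 1, 143999338 to 144004161, GRCm38), *Rgs1* (144242296 to 144249242) and *Rgs18* (144752683 to 144775435) lie in a cluster on the minus strand of chromosome 1. *Rgs13* lies between *Rgs2* and *Rgs1*, and *Rgs21* between *Rgs1* and *Rgs18*. *Rgs13* and *Rgs21* were listed at 0 in all 12 libraries, so that along this stretch genes measured in every library alternated with genes listed at 0. *Rgs16* (153740349 to 153745468) lies on the plus strand of the same chromosome, as does *Rgs8* (153653025 to 153700323), which was listed at 0 in 10 of 12 libraries and reached 0.546 FPKM.

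The other members lie apart. *Rgs19* is on chromosome 2 (181688419 to 181693977, minus strand), *Rgs3* on chromosome 4 (62559847 to 62704001, plus strand), *Rgs10* on chromosome 7 (128373621 to 128418758, minus strand) and *Rgs14* on chromosome 13 (55369732 to 55384687, plus strand). *Gpr65* is on chromosome 12 (98268635 to 98276644, plus strand) and *Gpr183* on chromosome 14 (121952551 to 121965195, minus strand).

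RefSeq promoters of 300 bases, from 250 bases before a start of the gene in RefSeq, matched 7 of the 10 members, all but *Rgs1*, *Rgs14* and *Rgs18* (build GRCm38.p6). Those of *Rgs16* (chr1:153740103-153740402, plus strand) and *Rgs10* (chr7:128418123-128418422, minus strand) are shown because both genes were called over both genotypes. The *Rgs10* window lies inside the GENCODE span of the gene, since the start that RefSeq uses is not its outermost. Neither holds the letters of the 4 motifs searched on both strands, so no base is in capitals.
Rgs16: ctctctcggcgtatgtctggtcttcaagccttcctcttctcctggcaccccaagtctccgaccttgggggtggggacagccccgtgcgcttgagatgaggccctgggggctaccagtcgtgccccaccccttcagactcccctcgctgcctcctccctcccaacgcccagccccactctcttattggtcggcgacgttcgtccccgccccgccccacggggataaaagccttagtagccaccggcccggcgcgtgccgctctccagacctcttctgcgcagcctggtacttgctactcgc
Rgs10: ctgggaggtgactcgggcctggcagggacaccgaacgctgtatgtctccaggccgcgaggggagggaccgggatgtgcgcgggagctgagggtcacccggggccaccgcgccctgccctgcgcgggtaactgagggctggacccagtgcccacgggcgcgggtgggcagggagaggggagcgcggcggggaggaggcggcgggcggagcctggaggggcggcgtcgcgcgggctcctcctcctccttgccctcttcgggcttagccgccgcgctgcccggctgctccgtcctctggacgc

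The letters searched were TGANTCA for AP-1, TGACGTCA for CRE, AGATAA for GATA factors and TTCNNNGAA for STAT factors, which occur in 7.81%, 1.79%, 11.2% and 8.30% of the 32851 promoters of the same length. Among the promoters of the 7 members, only 1 of the 2 for *Rgs3* had a match, to the motif of GATA factors. No match says only that these letters are not in this window. The G and C content was 66.0% in the *Rgs16* promoter and 76.0% in that of *Rgs10*, against a median of 52.7% over all promoters, and it was 35.3% for *Gpr183* and 38.3% for *Gpr65*.

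The rest of the pathway was described with lists of other genes. Of the 13 other RGS genes in the files, 2 were tested, *Rgs11* and *Rgs12*, and 0 were called between IL-33 and PBS in either genotype. *Rgs12*, the more abundant, averaged 10.1 ± 6.79 FPKM (SD, n = 3) in WT PBS and 15.3 ± 5.23 FPKM (SD, n = 3) in WT IL-33 libraries. The other 11 averaged at most 0.223 FPKM, so the 8 RGS members and these 2 genes were the RGS genes above the filter.

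Of the genes for G protein subunits, the substrates and partners of RGS proteins, 21 of 27 were tested and 0 were called by limma in either genotype. Over both genotypes 1 was, *Gna15* (log2 fold change 1.26, adjusted p = 0.0144, limma), which was chosen for naming after its values were seen. Their median log2 fold change was 0.48 in WT and 0.26 in 6DKO ILC2s, against 0.16 and 0.14 for all genes. *Gng5*, which encodes a γ subunit, was the most abundant, at 579 ± 149 FPKM (SD, n = 3) in WT PBS and 803 ± 33.4 FPKM (SD, n = 3) in WT IL-33 libraries. Of the receptor kinases and arrestins, which shut off active GPCRs, 6 of 7 were tested and 0 were called, with medians of 0.14 in WT and 0.33 in 6DKO ILC2s. *Grk6*, which had the highest mean of these over the 12 libraries, averaged 40.6 to 45.4 FPKM in the 4 groups, and *Adrbk1* was above it in both IL-33 groups.

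Of the genes of cAMP synthesis, breakdown and response, 20 of 27 were tested, and their median log2 fold change was −0.04 in each genotype. *Prkar2b*, which encodes a regulatory subunit of protein kinase A, was called as higher under IL-33 in WT (log2 fold change 2.70, adjusted p = 0.00240, limma) and in 6DKO ILC2s (2.87, adjusted p = 0.00263, limma). It was at most 0.194 FPKM in the 6 PBS libraries, 4 of which list it at 0, and at 4.87 to 7.21 FPKM in the 6 IL-33 libraries. *Pde4b*, which encodes a cAMP phosphodiesterase, was called in 6DKO ILC2s (1.60, adjusted p = 0.0375, limma). It was at 16.0, 12.6 and 28.5 FPKM under PBS and 65.1, 51.9 and 53.2 FPKM under IL-33 there. In WT ILC2s *Pde4b* averaged 38.7 FPKM under PBS and 39.7 FPKM under IL-33 (log2 fold change −0.0092, adjusted p = 1, limma), and the difference between the genotypes had an adjusted p of 0.766 (limma).

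Of 19 other leukocyte GPCR genes, 12 were tested. *Gpr34*, which encodes a receptor for lysophosphatidylserine, was lower under IL-33 in WT (log2 fold change −1.17, adjusted p = 0.0229, limma) and in 6DKO ILC2s (−1.25, adjusted p = 0.0220, limma). It was at 69.2 to 112 FPKM in the 6 PBS libraries and at 27.6 to 42.7 FPKM in the 6 IL-33 libraries. *Gpr18* was called in 6DKO ILC2s (adjusted p = 0.0346, limma), where it was listed at 0 in all 3 PBS libraries and was at 1.39, 8.48 and 6.399 FPKM under IL-33. It was not called in WT (adjusted p = 0.136, limma), and the difference between the genotypes had an adjusted p of 0.897 (limma). The median of the 12 was 0.56 in WT and 0.14 in 6DKO ILC2s.

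Of 4 enzymes that make or remove the oxysterol ligands of *Gpr183*, 1 was tested. *Hsd3b7* was listed at 0 in all 6 PBS libraries and was at 1.86, 0 and 0 FPKM in WT IL-33 and 3.58, 2.18 and 2.37 FPKM in 6DKO IL-33 libraries, and it was called in 6DKO ILC2s (adjusted p = 0.0458, limma) and not in WT (adjusted p = 0.621, limma; difference between the genotypes, adjusted p = 0.890). *Ch25h* and *Cyp7b1*, which encode the hydroxylases that make the main ligand, were listed at 0 in all 12 libraries.

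The genes most like each member were taken by Pearson's r of log2(FPKM + 1) over the 12 libraries among the 5582 other genes that averaged 10 FPKM or more, as a description, for the 9 members that themselves averaged 10 FPKM or more. These libraries differed in treatment, depth and detection, so r can follow those differences. For *Rgs1* they were *Hmgb2* (r = 0.977), *Cytip* (0.965) and *Lmnb1* (0.946), and for *Rgs16* they were *Dusp4* (0.935), *Plp2* (0.933) and *C1d* (0.932). *Vdac1* (0.971) and *Psmb1* (0.951) were most like *Rgs10*.

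Among the members that did not separate by treatment, *Rgs2* was most like *Ifrd1* (0.903), *Zfp62* (0.897) and *Saraf* (0.894), and *Rgs14* was most like *Eif4e2* (0.922), *Pradc1* (0.909) and *Bola2* (0.902). *Rgs18* was most like *Psme3* (0.904), *Tbca* (0.876) and *Cct5* (0.874). For *Rgs19* the values were lowest, with *Clpp* (0.865), *Nfyc* (0.849) and *Hltf* (0.803). The receptor *Gpr183* was most like *Fam21* (0.897), *Cdip1* (0.878) and *Rab20* (0.874), and *Gpr65* was most like *Chpt1* (0.932), *Rsrc2* (0.932) and *Fyttd1* (0.920). Among the pairs of these 9 members, r was highest for *Rgs1* and *Rgs16* (0.872).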

How the data were processed

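The authors deposited FPKM values for 24346 gene symbols in 12 libraries. The submitters' processing notes name TopHat2 2.1.1, Cuffdiff 2.2.1 and the mm10 build; the study's methods name another TopHat version, Cuffnorm in place of Cuffdiff, and another library kit than the labels. Groups and replicate numbers are from the labels, and 0 pairs of libraries were identical. Values were fitted as log2(FPKM + 1), a scale that understates changes of low genes, with limma 3.58.1 in R 4.3.3 (group means, 8 residual degrees of freedom, eBayes with a trend), two-sided, with Benjamini-Hochberg adjustment over 11395 genes; a gene was called at an adjusted p under 0.05. Contrasts were IL-33 against PBS in each genotype, the genotypes under each treatment and their interaction. Exact permutation tests used Python 3.11.15 with numpy 2.4.6. Absolute depth is unknown; relative depth is from genes below 3 FPKM. Scripts were tested on simulated data. Members and lists were chosen with earlier results of these data known. All 10 members are named, and of each list the genes called between treatments in either genotype or else the most abundant. Likeness took the 3 genes of highest r; not all are reported here. Alternatives changed the pseudocount, filter, scaling, prior, weights, threshold, block and libraries. Positions are from GENCODE (GRCm38).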

Additional observations from a re-analysis of the deposited data

How the results depend on the processing

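Of 1440 comparisons of 70 results with an alternative, 1342 kept their direction and side of the threshold, 59 reversed, 30 lost and 9 gained a call, and 44 results never reversed; the cause was not tested. The contrast over both genotypes, the counts without overlap over both genotypes and the alternatives to the exact test and to the counts without overlap were chosen after seeing the data. Neither the exact test nor the counts without overlap between 2 groups were counted among the planned results. The fit of only the groups compared was not run for the interaction or for that contrast. Members called in WT (0) were 1 with quantile normalization and 1 with array weights; in 6DKO (1) they were 0 with a minimum log2 fold change of 1, 0 without the trend and 0 with only the groups compared. Genes called between genotypes under PBS (66) were 33 with no filter, 36 with quantile normalization, 1 with array weights and 1 with only the groups compared. Under IL-33 (1) they were 0 with the minimum fold change, 2 with a pseudocount of 0.1, 0 with quantile normalization, 55 with array weights and 0 with only the groups compared. The interaction (2) had 5 with the pseudocount of 0.1 and 7 without the trend. With the replicate block, the count between genotypes under PBS was 15 and that of the interaction 1, and the block changed no call of a member. Same-numbered libraries did not deviate together (r −0.047 to 0.045), so no pairing by number was detected, though a weak one could be missed. Array weights gave 0.14 for *Rgs18* (IL-33 in 6DKO), −0.0113 for *Rgs2* and −0.0173 for *Gpr183* (genotype under PBS), and −0.19 for *Rgs10* and 0.081 for *Rgs14* (interaction); quantile normalization gave 0.017 for *Rgs14* (interaction).

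Leaving out each library in turn gave these ranges, which include every member whose direction reversed. For IL-33 against PBS in WT, 194 to 693 genes were called, 0 to 2 of them members, and log2 values were −0.12 to 0.24 for *Rgs14*, −0.084 to 0.37 for *Rgs18*, −0.0065 to 0.15 for *Rgs2*. For IL-33 against PBS in 6DKO, 115 to 437 genes were called, 0 to 2 of them members, and log2 values were −0.35 to 0.32 for *Rgs14*, −0.29 to 0.45 for *Rgs18*, −0.086 to 0.46 for *Rgs2*. For 6DKO against WT under PBS, 21 to 203 genes were called, and log2 values were −0.10 to 0.19 for *Gpr183*, −0.066 to 0.31 for *Gpr65*, −1.08 to 0.19 for *Rgs10*, −0.51 to 0.15 for *Rgs14*, −0.75 to 0.037 for *Rgs16*, −0.18 to 0.37 for *Rgs2*. For 6DKO against WT under IL-33, 0 to 3 genes were called, and log2 values were −0.031 to 0.11 for *Gpr65*, −0.30 to 0.11 for *Rgs16*. For the interaction, 0 to 25 genes were called, and log2 values were −0.27 to 0.11 for *Gpr65*, −0.56 to 0.71 for *Rgs10*, −0.40 to 0.26 for *Rgs14*, −0.20 to 0.59 for *Rgs16*, −0.41 to 0.35 for *Rgs18*, −0.17 to 0.37 for *Rgs2*. For IL-33 against PBS over both genotypes (whose log2 values are also those of the exact permutation test), 653 to 1186 genes were called, 2 to 4 of them members, and log2 values were −0.15 to 0.18 for *Rgs14*, −0.10 to 0.27 for *Rgs18*, −9.6e-06 to 0.27 for *Rgs2*.

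FPKM hold no read totals, so no interval for counting error can be given. PBS libraries listed more genes at 0 and were more spread than IL-33 libraries, while depths overlapped: the median SD of log2 values was 0.657 in WT PBS, 0.705 in 6DKO PBS, 0.292 in WT IL-33 and 0.282 in 6DKO IL-33. A shared estimate of the spread is then too small for PBS groups and too large for IL-33 groups.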
